A study of Mus spretus with 12 samples.

Results

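The interferon-stimulated genes described here are 36 genes that cells switch on in answer to interferon, among 37074 gene names on the array. They were chosen by name: every spot other than a control spot whose gene name in the scanner files equals one of the 36 was taken, which gave 62 spots of 62 probes. A probe was kept if the scanner software marked it as well above background on each of the 4 arrays in 1 or more groups. This left 33 of the 36 genes with at least 1 kept probe, and each of the 33 was well above background in all 3 groups. Ifi44, Oas3 and Herc6 were not well above background on any array and were not tested.

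Liver RNA was measured on one-colour Agilent arrays in male mice of SPRET/EiJ, a wild-derived inbred strain of Mus spretus. The mice entered the experiment at 20 months of age, were fed for 60 days and were 22 months old at sampling. The group PXDDE ate Teklad rodent diet with corn oil and p,p'-DDE at 450 mg/kg, a long-lived compound that forms when the insecticide DDT breaks down, and was given Pedro Ximenez grape must in its drinking water, which supplied 85 mg/L of polyphenols and 31 g/L of glucose and fructose in equal parts. The group DDE ate the p,p'-DDE diet without the must, and the control group ate Teklad diet with corn oil only. Each group has 4 arrays. No group received the must or its sugar without p,p'-DDE, so the polyphenols, the sugar and the rest of the must cannot be told apart. The title of the series asks about protection by the must against liver injury from p,p'-DDE. This makes PXDDE against DDE the comparison of interest, and DDE against control the comparison for the compound.

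Interferons are secreted by cells that sense foreign or misplaced nucleic acid. Type I and type III interferons act through JAK kinases and the factors STAT2 and IRF9, and interferon gamma induces IRF1. Both routes raise a common set of proteins that block viral replication, edit or degrade RNA, attach the ubiquitin-like protein ISG15 to other proteins, or feed antigen presentation. In liver, hepatocytes and resident macrophages both express such genes at rest.

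Between 50.12% and 52.01% of the spots were well above background on each array, and no spot was saturated. Values are log2 of the processed signal relative to the 75th percentile of the array, so 1 unit is a doubling, and they are compared between arrays for the same probe only. All 10 hepatocyte markers were measured, at a mean level of 7.55 ± 0.027 in PXDDE, 7.61 ± 0.12 in DDE and 7.70 ± 0.034 in control (SD, n = 4 arrays each). DDE array 1 stood at 7.43 and the other DDE arrays at 7.65 to 7.68. The PXDDE arrays, at 7.52 to 7.58, lay under the control arrays, at 7.67 to 7.73. Markers of other tissues differed strongly between the groups with little spread inside them. For 7 adrenal cortex markers the mean level was 1.72 ± 0.058 in PXDDE, -2.67 ± 0.032 in DDE and 1.00 ± 0.068 in control (SD, n = 4 arrays each). For 6 exocrine pancreas markers it was 6.80 ± 0.017 in PXDDE, 4.25 ± 0.042 in DDE and 4.55 ± 0.0076 in control. For 6 skeletal muscle markers it was 3.23 ± 0.086 in PXDDE, 3.67 ± 0.091 in DDE and 5.05 ± 0.034 in control. The design text names 4 mice each for the must and the control group, and the labels give each array only a replicate number. P-values therefore measure the spread between these arrays, which may be technical. In bulk tissue, fewer cells of a type and less RNA per cell cannot be told apart.

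The probes are 60 bases long, and their mm9 positions are those in the scanner files. The sequences below are the last 30 bases of the probes for the 4 tested OAS family members and for Isg15, Ifi27l2a, Mx1 and Ddx58. The OAS members moved in opposite directions, and the other genes were picked by hand. Mx2 and Rtp4, whose changes in PXDDE against DDE were larger than that of Ddx58, are not shown. Capitals mark AATAAA, the hexamer of the polyadenylation signal.
Isg15 (chr4:155573649-155573708, minus strand): gccagtgttggttataaaagatgatggggg
Ifi27l2a (chr12:104680394-104680453, minus strand): gtcaaagaatgatgaaaacaacaaagtata
Mx1 (chr16:97668644-97668703, minus strand): tagcgcttccAATAAAattcttgctaagtg
Oas1a (chr5:121346735-121346794, minus strand): aagtctgatcaacAATAAAccacagcaggt
Oas2 (chr5:121180343-121180402, minus strand): tatgcttcatAATAAAtggtttctttgtgt
Oasl2 (chr5:115362168-115362227, plus strand): tgtatgacaagtgcttgttaAATAAAgaag
Oasl1 (chr5:115387861-115387920, plus strand): tggagAATAAAaaagccattgtttcttccc
Ddx58 (chr4:40151893-40151952, minus strand): ctctagctattttcAATAAAggctcatgtt
AATAAA stood in 9 of the 33 probes used for the members, against 9.77% of all 56605 probes, and its reverse complement TTTATT in 1 of 33, against 3.85% of all. The 33 are each the brightest kept probe of a gene, while the 56605 include probes that were not kept. The sets are therefore unlike, and the difference is not read as a trait of the members. A match describes the letters of a probe only. Exons and untranslated regions were not assigned. The 4 OAS probes share no run longer than 7 bases with each other. The longest run shared by any pair was likewise 7 bases for the Mx probes and for the 5 GBP and IRG probes, and 6 bases for the IFIT probes.

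Most of the interferon-stimulated genes were lower in livers of mice that had the must with p,p'-DDE than in livers of mice that had p,p'-DDE alone. Of the 33 tested, 20 fell in PXDDE against DDE, 3 rose and 10 were not called, by limma at a Benjamini-Hochberg adjusted p under 0.05 over 18679 genes. Over all genes tested, 29.7% were called lower, 20.2% higher and 49.9% in either direction, against 60.6% lower and 9.09% higher among the members. The median log2 change of the members was -0.297, and that of all genes was -0.0402. With arrays centred on their medians, which moved the median of all genes to 0.103, 18 members were lower and 6 higher. The falls ran from 1.15-fold to 2.77-fold, and 3 of them, Isg15, Mx2 and Ifi27l2a, were at least 2-fold (2.29% of all genes), while none rose 2-fold (1.37% of all genes). For all 20 that fell, no PXDDE array reached the lowest DDE array, a lack of overlap seen in 26.4% of all genes. For the 3 that rose, the PXDDE arrays lay above all DDE arrays, as in 18.3% of all genes. The 20 members that fell are Isg15, Usp18, Mx1, Mx2, Ifit1, Ifit3, Oas1a, Oas2, Oasl2, Rsad2, Cmpk2, Ifi27l2a, Ifi35, Rtp4, Xaf1, Zbp1, Irf7, Irf9, Gbp3 and Iigp1.

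ISG15 is a ubiquitin-like protein, and USP18 removes it from its targets and also restrains the type I interferon receptor. Isg15 had log2 levels of 1.33, 1.24, 1.21 and 1.31 on the PXDDE arrays, 2.25, 2.41, 2.43 and 2.40 on the DDE arrays and 2.27, 2.53, 2.58 and 2.46 on the control arrays. The PXDDE arrays lay about 1 log2 unit under all others, while the DDE and control arrays overlapped. Isg15 was 2.14-fold lower in PXDDE than in DDE (log2 change -1.10 ± 0.069 SE, limma adjusted p = 2.71e-07), and its change in DDE against control was -0.09 ± 0.069 (limma adjusted p = 0.295). Usp18 had levels of 0.78, 0.76, 0.76 and 0.87 in PXDDE, 1.13, 1.12, 1.11 and 1.07 in DDE and 1.25, 1.28, 1.24 and 1.12 in control. It was 1.24-fold lower in PXDDE than in DDE, with no overlap. Of the enzymes that attach ISG15, Herc6 was too dim to test. Uba7 and Ube2l6, the activating and conjugating enzymes, fell by 0.26 and 0.35 on the log2 scale in PXDDE against DDE. These 2 genes are not among the 36 and were chosen after their values were seen.

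The Mx proteins are dynamin-like GTPases that trap viral nucleoproteins. Both Mx genes were lower in DDE than in control and lower again in PXDDE. Mx1 had levels of -0.88, -0.87, -0.99 and -0.79 in PXDDE, -0.19, -0.08, -0.17 and -0.18 in DDE and 0.29, 0.21, 0.27 and 0.24 in control, so that the 3 groups stood apart from each other. The difference of PXDDE from DDE was -0.73 ± 0.048 on the log2 scale (limma adjusted p = 4.33e-07), and the difference of DDE from control was -0.41 ± 0.048 (limma adjusted p = 4.16e-05). Another kept Mx1 probe gave -0.98 and -0.37 for the same differences, both called. Mx2 had levels of -3.20, -3.32, -3.28 and -2.95 in PXDDE, -2.19, -2.16, -2.04 and -2.23 in DDE and -1.53, -1.84, -1.81 and -1.45 in control. It was 2.04-fold lower in PXDDE than in DDE and 1.41-fold lower in DDE than in control.

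**Figure D1:**
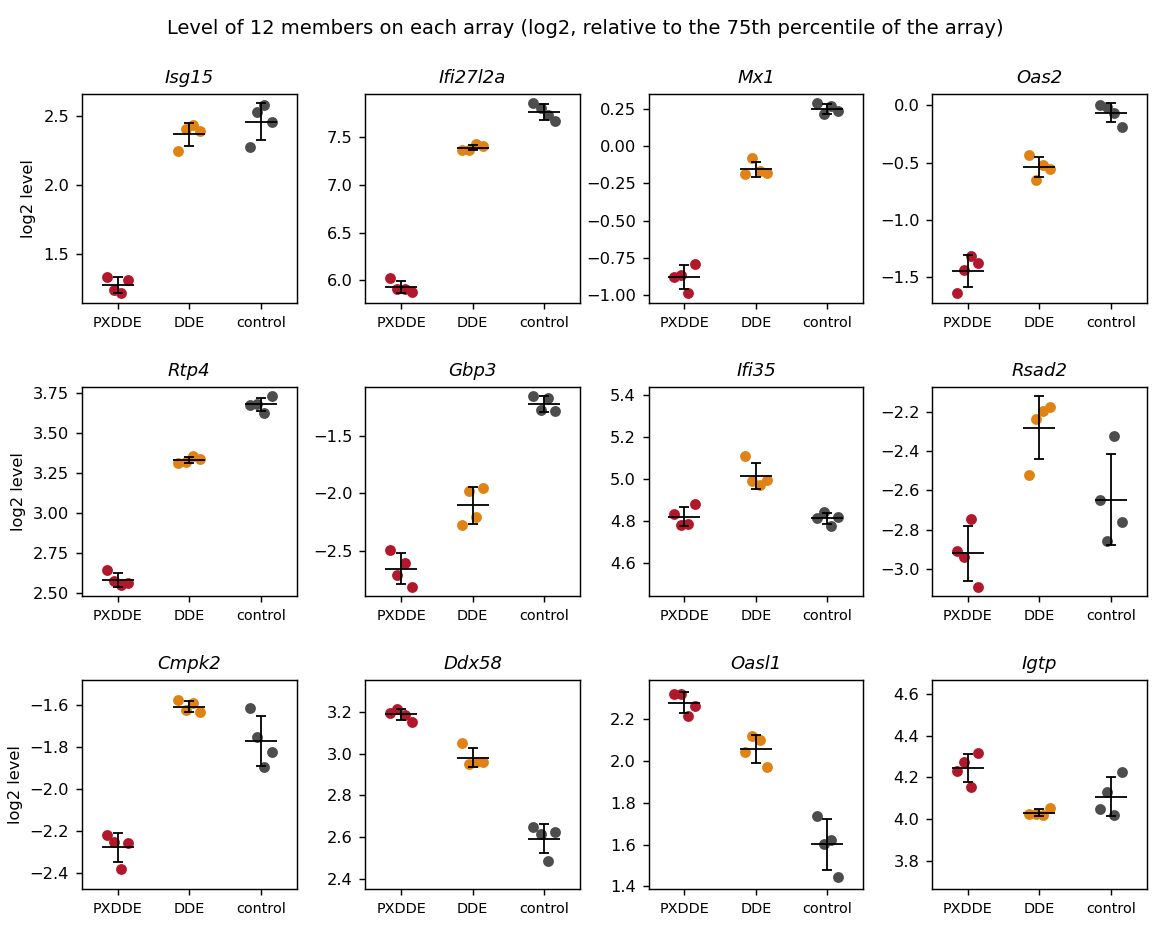
Log2 level of 12 members on each array, relative to the 75th percentile of that array. Points are single arrays (PXDDE, DDE, control from left to right), and the black bars are the mean and SD of 4 arrays. The 4 PXDDE points lie under all DDE points in the panels from Isg15 to Cmpk2 and above them for Ddx58, Oasl1 and Igtp.

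The OAS enzymes make a short oligoadenylate messenger that activates RNase L when they bind double-stranded RNA, and the OASL proteins are relatives. Of the 4 members tested, 3 fell with the must and 1 rose. Oas2 had levels of -1.64, -1.44, -1.31 and -1.38 in PXDDE, -0.44, -0.65, -0.52 and -0.55 in DDE and 0.00, -0.02, -0.07 and -0.19 in control, and was 1.87-fold lower in PXDDE than in DDE (limma adjusted p = 2.43e-06). Oas1a was 1.53-fold lower, at 3.09 to 3.31 in PXDDE against 3.70 to 3.83 in DDE. Oasl2 was 1.75-fold lower, at -1.66 to -1.36 in PXDDE against -0.97 to -0.45 in DDE. Oasl1, which in mouse restrains translation of Irf7, went the other way. Its levels were 2.32, 2.32, 2.21 and 2.26 in PXDDE, 2.04, 2.12, 2.10 and 1.97 in DDE and 1.74, 1.60, 1.62 and 1.44 in control. It was 1.16-fold higher in PXDDE than in DDE (log2 change 0.22 ± 0.062, limma adjusted p = 0.012) and 1.37-fold higher in DDE than in control (limma adjusted p = 0.00011). Its call in PXDDE against DDE was lost in 1 of 5 other scalings, while another kept probe of Oasl1 was called higher in all 3 comparisons. Outside the 36, Oas1b rose 0.39 log2 units in PXDDE against DDE.

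The IFIT proteins bind viral RNA that lacks the host cap marks. Ifit1 had levels of -1.29, -1.24, -1.40 and -1.29 in PXDDE, -0.53, -0.54, -0.35 and -0.70 in DDE and -0.53, -0.74, -0.88 and -0.81 in control. It was 1.71-fold lower in PXDDE than in DDE (limma adjusted p = 2.27e-05) and its change in DDE against control was 0.21 ± 0.085 (limma adjusted p = 0.061). Ifit3 fell 1.22-fold in PXDDE against DDE, with levels of 0.57 to 0.69 in PXDDE against 0.85 to 0.93 in DDE. Ifit2 was the most scattered of the members inside the PXDDE and DDE groups, with an SD of 0.223 in PXDDE and 0.348 in DDE. Its difference between those groups was -0.29 ± 0.16 (limma adjusted p = 0.154), or -0.428 without DDE array 1 (limma adjusted p = 0.0263). It was lower in DDE than in control by 0.52 (limma adjusted p = 0.0187), a call kept in 2 of 5 other scalings and lost with the slide as a block (-0.401, limma adjusted p = 0.0748).

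The largest fall among the members was that of Ifi27l2a, a small interferon-inducible protein of the ISG12 family whose human relatives sit in mitochondria. Its levels were 6.02, 5.90, 5.91 and 5.87 in PXDDE, 7.37, 7.37, 7.43 and 7.41 in DDE and 7.86, 7.81, 7.74 and 7.67 in control. The arrays of a group lay within 0.2 of each other and the groups were apart. Ifi27l2a was 2.77-fold lower in PXDDE than in DDE (log2 change -1.47 ± 0.051, limma adjusted p = 1.58e-09) and 1.30-fold lower in DDE than in control (limma adjusted p = 0.000106). Ifi27, its relative outside the 36, fell 0.33 log2 units in PXDDE against DDE. Rtp4, a chaperone of G protein-coupled receptors that is induced by interferon, had levels of 2.65, 2.58, 2.55 and 2.57 in PXDDE, 3.31, 3.32, 3.35 and 3.34 in DDE and 3.67, 3.68, 3.63 and 3.73 in control. It was 1.68-fold lower in PXDDE than in DDE and 1.27-fold lower in DDE than in control.

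Rsad2 and Cmpk2 are neighbours in the mouse genome. The RSAD2 protein makes a chain-terminating nucleotide, and CMPK2 helps to supply its precursor. Both were higher in DDE than in control and lower in PXDDE than in DDE. Rsad2 had levels of -2.91, -2.94, -2.75 and -3.09 in PXDDE, -2.52, -2.23, -2.19 and -2.18 in DDE and -2.65, -2.86, -2.32 and -2.76 in control. Cmpk2 had levels of -2.22, -2.25, -2.38 and -2.26 in PXDDE, -1.58, -1.62, -1.59 and -1.63 in DDE and -1.61, -1.75, -1.90 and -1.82 in control. In PXDDE against DDE the falls were 1.56-fold for Rsad2 (limma adjusted p = 0.00101) and 1.59-fold for Cmpk2 (limma adjusted p = 4.44e-06), with no overlap. In DDE against control the DDE and control arrays overlapped for both, and the rises of 0.37 for Rsad2 and 0.16 for Cmpk2 lost their call in 1 of 5 other scalings. Without control array 2 or 4 or DDE array 2, 3 or 4 the rise of Rsad2 was 0.296 to 0.351 and not called, and without any 1 array except control array 1 that of Cmpk2 was 0.123 to 0.174 and not called. With the slide as a block the rise of Cmpk2 was not called either (limma adjusted p = 0.103).

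Ifi35, a leucine-zipper protein that binds NMI, rose 1.15-fold in DDE against control, with no overlap, and fell 1.15-fold in PXDDE against DDE. Its levels were 4.78 to 4.88 in PXDDE, 4.97 to 5.11 in DDE and 4.77 to 4.84 in control, and the fall was called in 1 of 5 other scalings. Xaf1, which counters an inhibitor of apoptosis, fell 1.27-fold in PXDDE against DDE. Bst2, the tetherin that holds budding virions at the membrane, was not called in any comparison in this fit. In PXDDE against control 4 of 5 other scalings called it higher, at 0.39 to 0.429, against 0.02 here, and in DDE against control median centring did so, at 0.403. Its spread was the widest of the members in control (SD 0.349), where array 1 stood at 7.03 and the others at 7.63 to 7.78. Parp14, an ADP-ribosyltransferase, was not called in PXDDE against DDE. Its 2 kept probes were called in opposite directions in PXDDE against control, at 0.26 and -0.28.

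**Figure D2:**
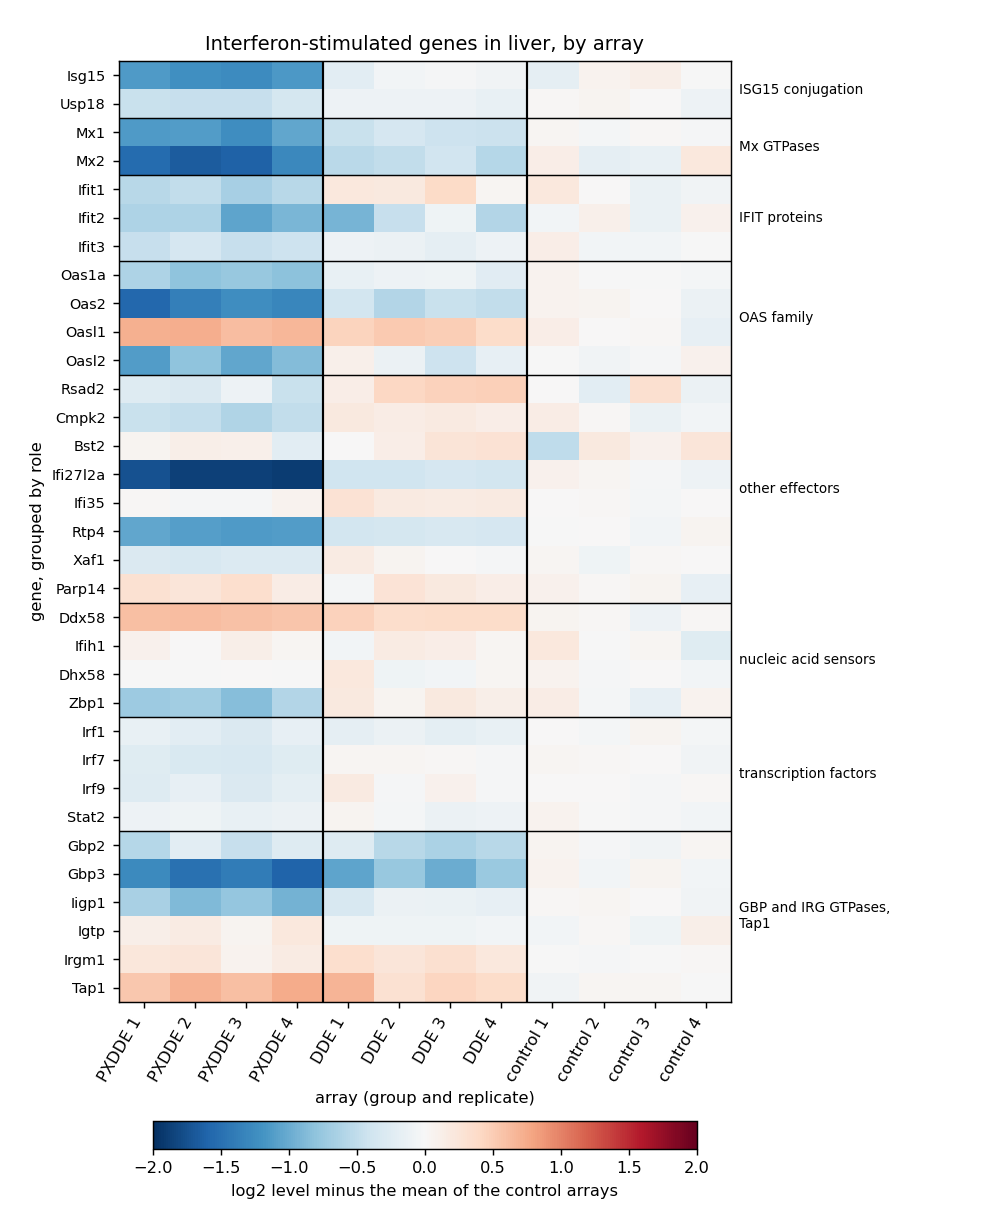
Level of the 33 tested members (rows, grouped by role) on the 12 arrays (columns), as the log2 difference from the mean of the control arrays. Blue is lower and red is higher; the PXDDE columns are bluest for Ifi27l2a, Mx2, Gbp3 and Oas2 and red for Oasl1, Ddx58 and Tap1.

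Of the 4 sensors of foreign nucleic acid, 1 rose, 1 fell and 2 were not called in PXDDE against DDE. Ddx58, which encodes the RNA sensor RIG-I, had levels of 3.19, 3.21, 3.19 and 3.15 in PXDDE, 3.05, 2.95, 2.96 and 2.96 in DDE and 2.65, 2.62, 2.49 and 2.62 in control, and the 3 groups did not overlap. It was 1.15-fold higher in PXDDE than in DDE (limma adjusted p = 0.00274) and 1.31-fold higher in DDE than in control (limma adjusted p = 3.5e-05). Both further Ddx58 probes were called higher in DDE against control and neither in PXDDE against DDE, where they gave 0.06 and 0.05. Zbp1, a sensor of Z-form nucleic acid that can start necroptosis, fell 1.81-fold in PXDDE against DDE, with levels of -0.44 to -0.17 in PXDDE and 0.47 to 0.62 in DDE. Another kept Zbp1 probe was dimmer and scattered, with an SD of 0.767 in PXDDE and 0.831 in DDE. It gave -0.49 in that comparison and was not called (limma adjusted p = 0.436). Ifih1, which encodes the sensor MDA5, and Dhx58, which encodes the regulator LGP2, were not called in any comparison in this fit. With median centring both were called higher in DDE against control, at 0.301 and 0.26. The same setting called them higher in PXDDE against control, at 0.433 and 0.369. A dimmer Ifih1 probe was well above background on 1 PXDDE array, 1 DDE array and 4 control arrays, so no change is given for it.

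Among the transcription factors, Irf9 had levels of 2.58 to 2.70 in PXDDE, 2.84 to 3.05 in DDE and 2.84 to 2.89 in control, and fell 1.21-fold in PXDDE against DDE. Stat2, its partner, was not called in any comparison in this fit. In PXDDE against control it was at -0.11 (limma adjusted p = 0.0557), and another kept Stat2 probe was called lower, at -0.46. Quantile normalisation and the RMA-like setting called Stat2 lower there, at -0.16 and -0.157, and median centring higher, at 0.264. In DDE against control the RMA-like setting called it lower, at -0.117, and median centring higher, at 0.177. Irf7, the factor that amplifies type I interferon, was at 6.24 to 6.32 in PXDDE against 6.54 to 6.61 in DDE, a 1.23-fold fall. That direction depends on the scaling: quantile normalisation put the same difference at 0.0296, the RMA-like setting at 0.029 and the deposited values at 0.0404. Another kept Irf7 probe gave -0.19 and was not called (limma adjusted p = 0.126). Irf1 was 1.12-fold lower in DDE than in control (limma adjusted p = 0.0102), and another Irf1 probe was not called.

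The guanylate-binding proteins and immunity-related GTPases act on membranes around intracellular pathogens and are strongly induced by interferon gamma. Gbp3 had levels of -2.50, -2.71, -2.61 and -2.81 in PXDDE, -2.28, -1.98, -2.21 and -1.96 in DDE and -1.15, -1.27, -1.17 and -1.28 in control. It was 1.47-fold lower in PXDDE than in DDE, and its fall of 1.85-fold in DDE against control was the largest of the members in that comparison (limma adjusted p = 9.19e-06). Iigp1 fell 1.54-fold in PXDDE against DDE, at 3.83 to 4.12 in PXDDE against 4.45 to 4.65 in DDE. Its fall of 0.18 in DDE against control (limma adjusted p = 0.0417) was not called without control array 1, 2 or 3 or DDE array 1, 3 or 4, at -0.202 to -0.138. Another kept Iigp1 probe was 2.38-fold lower in that comparison (limma adjusted p = 8.41e-06), and 1.41-fold lower in PXDDE against DDE, so the size of the fall depends on the probe. Gbp2 was 1.41-fold lower in DDE than in control, and its difference of 0.12 between PXDDE and DDE was not called (limma adjusted p = 0.308). Igtp rose 1.16-fold in PXDDE against DDE, at 4.16 to 4.32 in PXDDE against 4.02 to 4.05 in DDE. Its rise of 0.14 in PXDDE against control was not called without control array 1, 2 or 3 or PXDDE array 1, 2 or 4, at 0.108 to 0.145, nor with the slide as a block, at 0.122 (limma adjusted p = 0.0729). Irgm1, which guards host membranes from its relatives, rose 1.21-fold in DDE against control, and 3 kept probes of it were called in that direction. Tap1, a subunit of the peptide transporter for MHC class I, rose 1.36-fold in DDE against control and was at 1.41 to 1.61 in PXDDE, 1.17 to 1.55 in DDE and 0.80 to 0.91 in control. Its difference of 0.20 between PXDDE and DDE (limma adjusted p = 0.0558) was called in 3 of 5 other scalings, with the slide as a block (0.172), as the mean of its probes (0.254), without DDE array 1 (0.28) and without PXDDE array 1 (0.235). Another kept Tap1 probe gave 0.31 (limma adjusted p = 0.0187).

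**Figure D3:**
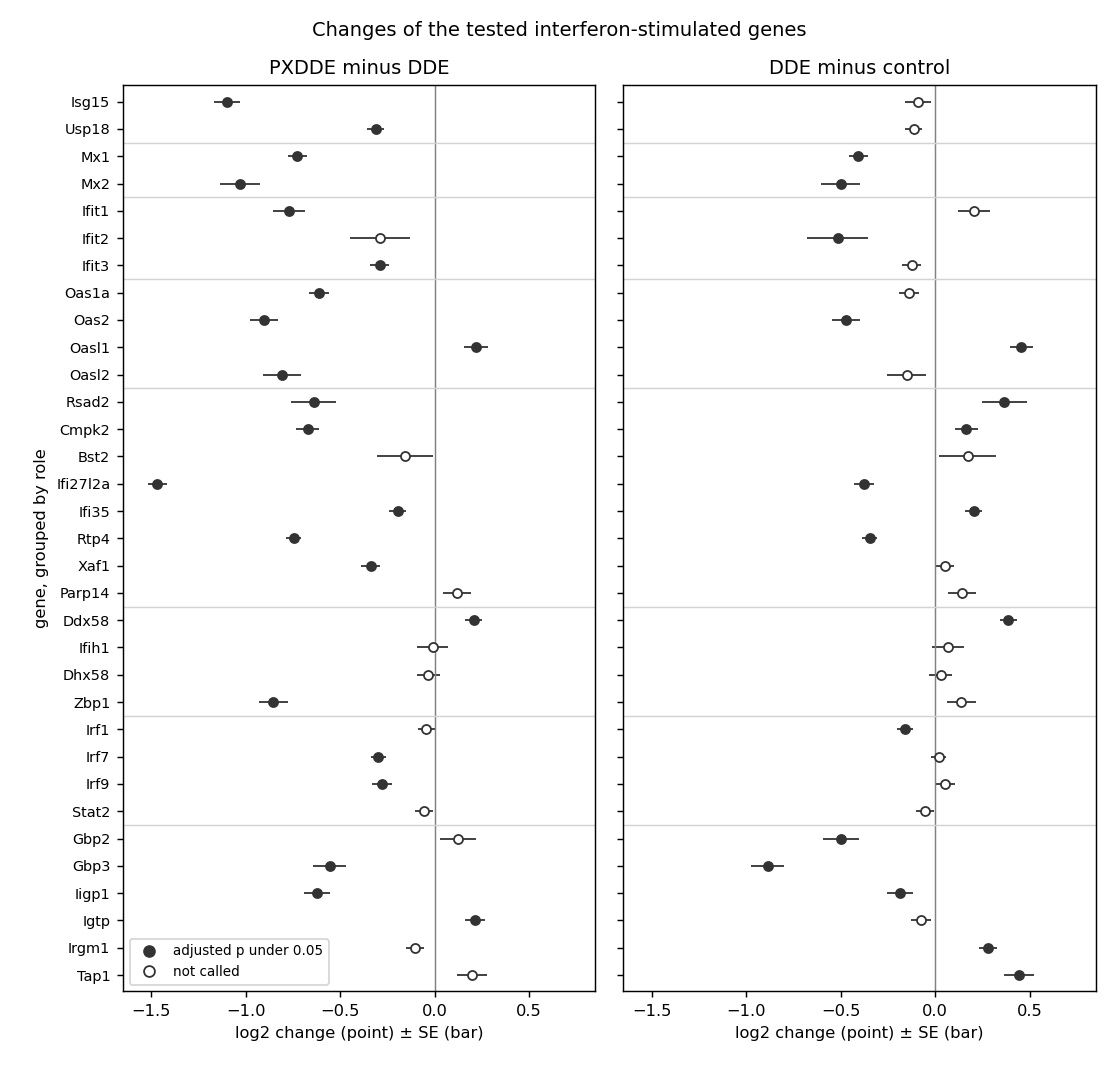
Log2 change of the 33 tested members in PXDDE minus DDE (left) and DDE minus control (right), with the SE from the fit as bars. Filled points were called at an adjusted p under 0.05; 20 filled points lie left of 0 and 3 right of it in the left panel, against 10 and 7 in the right panel.

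The DDE and control diets differ in p,p'-DDE, and the arrays of these groups also differ in the markers of other tissues given above. In DDE against control the members did not move one way. There 7 members rose, 10 fell and 16 were not called, against 24% of all genes called higher, 26.3% called lower and 50.3% called in either direction. The members' shares of 21.2% higher and 30.3% lower lay near those of all genes. Their median log2 change was -0.0539, and that of all genes was -0.0239. With arrays centred on their medians, which moved the median of all genes to 0.207, 18 members were higher and 7 lower and their median turned to 0.177. The DDE arrays did not overlap the control arrays for 5 members that were higher and 11 that were lower, against 22.3% and 24.1% of all genes. No member changed 2-fold, where 1.1% of all genes were called at least 2-fold higher and 3.04% at least 2-fold lower, and called changes ran up to 1.85-fold lower and 1.37-fold higher. The 7 that rose are Ifi35, Rsad2, Cmpk2, Oasl1, Ddx58, Irgm1 and Tap1. The 10 that fell are Mx1, Mx2, Ifit2, Ifi27l2a, Oas2, Rtp4, Irf1, Gbp2, Gbp3 and Iigp1.

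PXDDE against DDE and DDE against control share the DDE arrays, so their changes are not independent and no overlap of their calls is counted. Of the members not called in DDE against control, some depended on the scaling. Ifit1 and Irf7 were called higher there in 4 of 5 other scalings, Irf7 at 0.145 to 0.25. Ifit3, Oas1a and Usp18 were called lower in 3 of 5.

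In PXDDE against control, 21 members fell, 6 rose and 6 were not called, where 39.3% of all genes were called lower, 31.6% higher and 70.9% in either direction. The members' shares were 63.6% lower and 18.2% higher, with a median log2 change of -0.377 against -0.0577 over all genes. With arrays centred on their medians, which moved the median of all genes to 0.317, 13 members were higher and 12 lower. At least 2-fold lower were Isg15, Mx1, Mx2, Ifi27l2a, Oas2, Rtp4 and Gbp3, which is 7 of 33, against 9.42% of all genes, and none was 2-fold higher (2.39% of all genes). The PXDDE arrays did not overlap the control arrays for 22 members that were lower and 5 that were higher, against 36.3% and 28.9% of all genes. Ifi27l2a was 3.59-fold lower (log2 change -1.84 ± 0.051, limma adjusted p = 9.66e-11), Mx2 2.89-fold lower and Gbp3 2.72-fold lower. The 6 that rose are Oasl1, Ddx58, Tap1, Irgm1, Igtp and Parp14, of which Oasl1 rose most, by 1.60-fold.

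The other genes of the pathway were read from lists that do not contain the 36. Of 18 interferon genes on the array, only Ifna9 and Ifnl3 were tested, both dim. Ifna9 fell by 0.33 on the log2 scale in PXDDE against DDE (limma adjusted p = 0.0384) and by 0.43 in DDE against control (limma adjusted p = 0.0108), and Ifnl3 was not called. Ifnb1 and Ifng did not reach a level well above background on any of the 12 arrays. In the list of receptors and JAK-STAT genes, 6 of 17 rose and 4 fell in PXDDE against DDE, where 20.2% of all genes were called higher and 29.7% lower. Ifnar2, a chain of the type I interferon receptor, fell 0.25 in PXDDE against DDE and rose 0.47 in DDE against control, while Ifnar1, the other chain, rose 0.13 and fell by 0.33 in the same comparisons (all log2). Ifngr1, a chain of the interferon gamma receptor, fell 0.38 in PXDDE against DDE. Socs1 and Socs3, feedback inhibitors of JAK signalling, rose 1.00 and 0.55 in PXDDE against DDE and fell 0.70 and 0.49 in DDE against control.

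Of 24 genes of nucleic acid sensing, 6 rose and 6 fell in PXDDE against DDE, and 9 rose and 5 fell in DDE against control. Beside these counts and those below, 20.2% of all genes were called higher and 29.7% lower in PXDDE against DDE. In DDE against control the shares of all genes were 24% and 26.3%. Mb21d1, which encodes the DNA sensor cGAS, fell by 1.09 on the log2 scale in PXDDE against DDE and Ifi204, a DNA-binding relative of human IFI16, by 0.65. Ikbke, a kinase that activates IRF3 and IRF7, rose 0.43 in PXDDE against DDE and 1.09 in DDE against control. Irf3 was not called in any comparison. Among 45 further interferon-induced effectors, 19 fell and 9 rose in PXDDE against DDE, with a median of -0.0714. Those with the smallest p in that comparison were Gm4951 at -0.63, Ifi27 at -0.33, Oas1b at 0.39 and Ms4a4c at -0.54. Of 13 further guanylate-binding proteins and immunity-related GTPases, 7 fell and 2 rose, with Tgtp2 at -0.58 and Irgq at 0.42.

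Of 20 genes of MHC class I processing, which carry peptides from the cytosol to the surface, 3 rose and 4 fell in PXDDE against DDE, and 12 rose and 2 fell in DDE against control, where Tapbp, the tapasin that loads peptide, rose 0.64 and B2m, the light chain, 0.16. Of 10 genes of MHC class II, which presents peptides taken up from outside, and its regulator Ciita, 6 fell and none rose in PXDDE against DDE, and 8 fell and none rose in DDE against control, with H2-Ab1 at -0.31 and -0.35. Of 6 chemokines, 5 fell and 1 rose in PXDDE against DDE, and 3 fell and 2 rose in DDE against control. Among all genes, 29.7% were called lower and 20.2% higher in PXDDE against DDE, and 26.3% lower and 24% higher in DDE against control. Cxcl10, a ligand of CXCR3 that interferon gamma induces, was at 1.81 in PXDDE, 2.46 in DDE and 0.65 in control. It fell 0.65 in PXDDE against DDE and rose 1.81 in DDE against control, a rise that no member matched in size. Ccl2, which attracts monocytes, likewise fell 0.69 and rose 1.18. Cxcl10 and Ccl2 are the 2 chemokines that rose in DDE against control. Of the 3 that fell there, 1 was at least 2-fold lower, and the median of the list was -0.148.

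**Figure D4:**
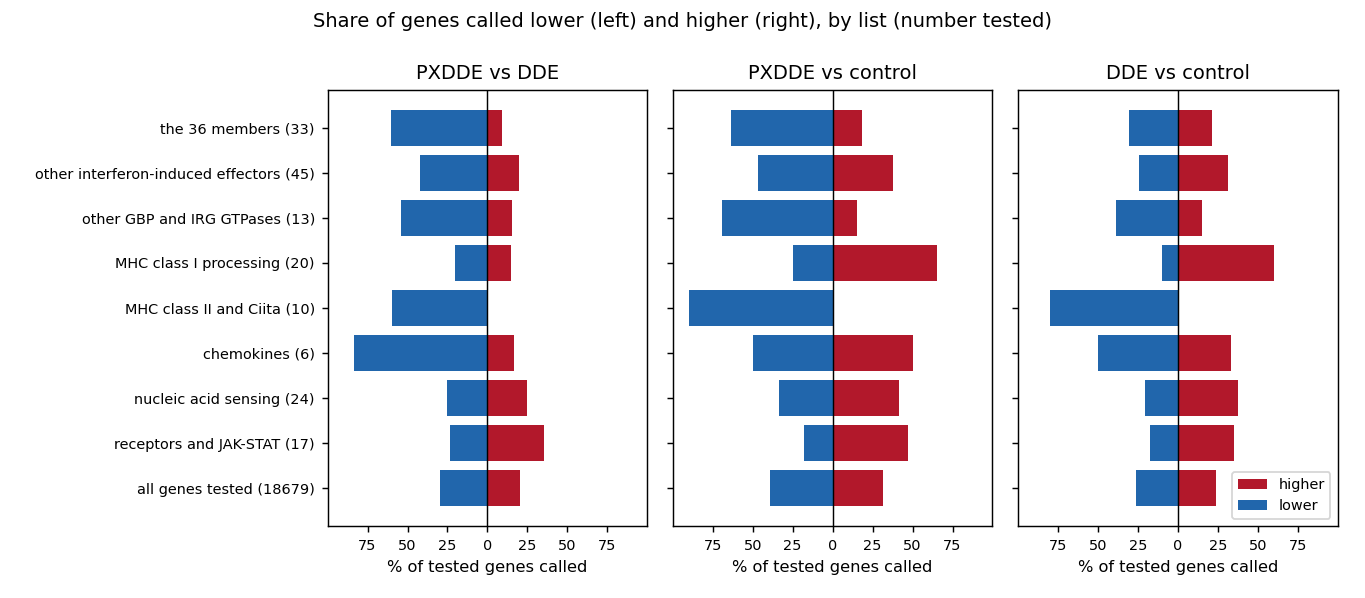
Share of the tested genes of each list (number in brackets) called lower (blue, left of 0) and higher (red, right of 0) in the 3 comparisons, with all genes tested at the bottom. The members have 60.6% called lower in PXDDE against DDE, where all genes have 29.7%.

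Markers of several immune cell types were also lower in PXDDE than in DDE, where 29.7% of all genes were called lower and 20.2% higher. In DDE against control these shares of all genes were 26.3% and 24%. Of 12 markers of Kupffer cells and macrophages, 10 fell and none rose in PXDDE against DDE, and 10 fell and none rose in DDE against control. Their summed linear level was 61.8 to 65.3 on the PXDDE arrays, 82.1 to 87.4 on the DDE arrays and 103.5 to 108.9 on the control arrays. Of 12 markers of T and NK cells, 8 fell and none rose in each of those comparisons, and their sums were 26.5 to 29.2 in PXDDE, 26.5 to 43.9 in DDE and 56.9 to 60.2 in control. The T cell marker Cd8a never rose well above background. Of 9 neutrophil markers, 8 fell and none rose in PXDDE against DDE, and 5 fell and none rose in DDE against control. Their sums were 33.3 to 38.9 in PXDDE, 75.3 to 80.4 in DDE and 100.7 to 103.2 in control. Of 7 B and plasma cell markers, 4 fell and none rose in PXDDE against DDE, and 6 fell and none rose in DDE against control. Of 8 monocyte markers, 2 rose and 4 fell in PXDDE against DDE, and 1 rose and 2 fell in DDE against control. Of 7 plasmacytoid dendritic cell markers, 1 rose and 1 fell in PXDDE against DDE, and none rose and 2 fell in DDE against control. Bst2, itself one of the members, is among these 7 markers. Of 5 erythroid markers, 4 fell and none rose in PXDDE against DDE, and 2 rose and none fell in DDE against control, with sums of 408 to 443 in PXDDE, 628 to 688.6 in DDE and 660.2 to 724.6 in control. Of 8 liver endothelial markers, 3 rose and 2 fell in PXDDE against DDE, and of 10 hepatocyte markers, 1 rose and 6 fell. In DDE against control no endothelial marker was called, and 2 hepatocyte markers rose and 3 fell. The sums of the hepatocyte markers were 3045 to 3258 in PXDDE, 2517 to 3494 in DDE and 3689 to 4019 in control. The part of cell makeup, and of RNA from the other tissues given above, in the changes of the members was not tested.

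**Figure D5:**
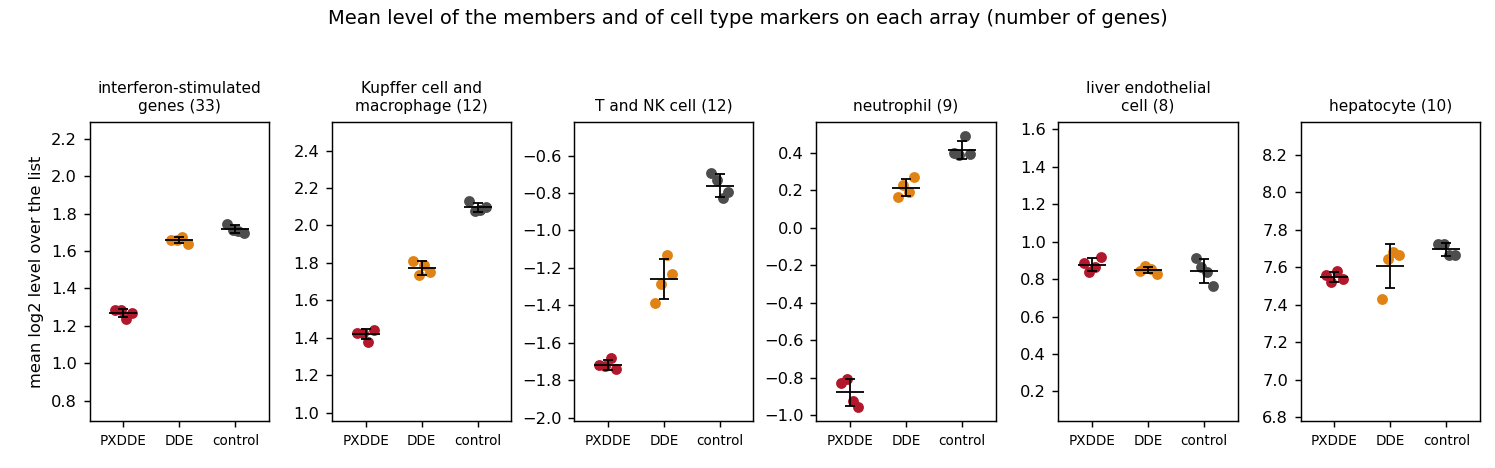
Mean log2 level of the 33 tested members and of 5 lists of cell type markers on each array, with the mean and SD of 4 arrays in black. All panels span the same number of log2 units; the members drop in PXDDE, the Kupffer cell and T and NK cell markers are lower in DDE than in control and lower again in PXDDE, and the endothelial markers overlap.

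On this scaling the mean level of the members kept the arrays of the 3 groups apart. It was 1.235 to 1.284 on the PXDDE arrays, 1.638 to 1.675 on the DDE arrays and 1.698 to 1.746 on the control arrays, a description with no test. The order of DDE and control depends on the scaling: the members' median change there was -0.0539 here and 0.177 with median centring. Such separation was not particular to the members. Kupffer cell and macrophage markers were at 1.378 to 1.442, 1.733 to 1.812 and 2.077 to 2.13 in the same order, while endothelial markers overlapped. The arrays lay on 5 slides, each scanned in its own pass. All 20 members that fell in PXDDE against DDE were also lower on every 1 of 3 slides with arrays of both groups, where the members' median change was -0.342, -0.350 and -0.308. All 20 kept their call without any 1 array. Under 5 other scalings, 17 of the 20 stayed called lower in all, the exceptions being Ifi35, Irf7 and Irf9.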

How the data were processed

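The 12 files hold the scanner output of 1 array each. Per the file headers, the deposited intensity of each spot is the processed signal of Agilent Feature Extraction, background-corrected and detrended. Version 11.5.1.1 of that software is given by the submitters' processing notes, which also list RMA and limma. The authors also deposited values on a log2 scale, which was found by setting each column against log2 of its array's processed signal (correlation 0.9949 to 0.9964 across probes). The column medians of these values were 5.324 to 5.348. How they were centred is not given in the sources used here.

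Values are log2 of the processed signal minus log2 of the array's 75th percentile over spots that are not controls. Files were read with the R package data.table, version 1.17.8. Outlier spots were dropped, and 27099 of 56605 probes were kept. A gene is its brightest kept probe: 18 tested members had 1 kept probe and 15 had several. Gene names and mm9 positions are those in the files. Probes follow laboratory mouse sequence, and whether they match that of Mus spretus was not checked.

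Groups were compared with limma 3.58.1 (R 4.3.3): 1 fit over 12 arrays, group as the only term, 9 residual degrees of freedom, eBayes, and Benjamini-Hochberg adjustment over 18679 genes. An adjusted p under 0.05 made a call. Rose and fell are used of called genes. Tested on simulated data for PXDDE against DDE over 18679 genes, the fit called 24%, 76%, 88% and 100% of 50 genes changed by 0.25, 0.5, 1 and 2 on the log2 scale, with 11 unchanged genes called. In the data many more genes were called, 9320 in that comparison, which makes the adjusted threshold less strict. The simulated shares therefore do not carry over to the data. The number of arrays limits the precision, and arrays of a group correlated at 0.99511 to 0.99745.

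The members and lists were chosen with earlier results of these data known. Named genes are the 36 members, up to 4 called genes with the smallest p in each pathway list and comparison, and a set named whatever their values, such as Irf3 and Cxcl10. Only some are printed, and a gene that the rule gives is not reported here. Uba7, Ube2l6, Ifnl3 and Cd8a lie outside this rule and were chosen after their values were seen. The replicate numbers of the labels were checked for pairing. Same-numbered arrays correlated at -0.369 to 0.132 in their deviations from the group means, so the numbers were not taken as pairs. Alternatives were quantile normalisation, normexp with an offset of 50, both together (RMA-like), median centring, the deposited values, no or a stricter filter, the mean of a gene's probes, only the groups compared, a block for the replicate number or for the slide, retention of outlier spots, and leaving out single arrays. Each kept probe of a member was also fitted by itself, an alternative added after seeing the data.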

Additional observations from a re-analysis of the deposited data

Results flagged for a closer look

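For each of the 33 tested members in each group of 4 arrays, the highest and the lowest array were set against the others by Dixon's test. In 6 of these 99 sets 1 array stood apart, where chance gives about 1 in 20. Usp18 was at 0.8748 on PXDDE array 4 and at 0.7641 to 0.7806 on the others of that group. Bst2 was at 7.342 on the same array and at 7.606 to 7.657 on the others. Mx1 was at -0.07895 on DDE array 2, with the others at -0.188 to -0.1698. Rsad2 was at -2.52 on DDE array 1, with the others at -2.234 to -2.177. Ddx58 was at 3.05 on that array, with the others at 2.951 to 2.961. Igtp was at 4.055 on DDE array 4, with the others at 4.023 to 4.027.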

How the results depend on the processing

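The number of members called lower in PXDDE against DDE was 20 to 21 over the fits that leave out 1 array and within 1.5 times of 20 under every other setting tried. The median change of the members lay at -0.317 to -0.283 in PXDDE against DDE, -0.0581 to -0.0287 in DDE against control and -0.417 to -0.312 in PXDDE against control when 1 array was left out. In the order PXDDE against DDE, PXDDE against control and DDE against control, quantile normalisation gave -0.279, -0.337 and -0.105, and the RMA-like setting gave -0.252, -0.311 and -0.0778. With median centring it was -0.154, -0.00297 and 0.177. It was -0.273 and -0.34 in the first pair with normexp, -0.243 in PXDDE against DDE and -0.0924 in DDE against control with the deposited values. With the mean of a gene's probes it was -0.426 in PXDDE against control and -0.091 in DDE against control. In PXDDE against control it was -0.42 with no filter and -0.398 with the slide as a block. Members called higher numbered 6, 13 and 18 with median centring, against 3, 6 and 7, and 12 were called lower in PXDDE against control. With the slide as a block, 5 were higher in PXDDE against DDE. Without the filter 14103 genes were called in PXDDE against DDE and 21803 in PXDDE against control, against 9320 and 13243. Of all called genes, 66.3%, 73.1% and 81.3% were higher with median centring, against 40.6%, 44.5% and 47.7%, and 52.2% to 53.7% with quantile normalisation, the RMA-like setting and the deposited values.

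Leaving out 1 array added calls for Ifit1 in DDE against control (0.276 without control array 1, 0.265 without DDE array 4), Usp18 (-0.149 without control array 4) and Parp14 (0.201 without DDE array 1). It did so in PXDDE against control for Rsad2 (-0.344 without control array 2, -0.332 without PXDDE array 3) and Stat2 (-0.125 without control array 4).

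Irf7 turned to 0.0296 in PXDDE against DDE and 0.195 in PXDDE against control with quantile normalisation, to 0.029 and 0.175 in the RMA-like setting and to 0.0404 and 0.186 with the deposited values. With median centring, changes called in either fit turned sign in PXDDE against control for Irf7 (0.0957), Irf1 (0.172), Irf9 (0.145), Stat2 (0.264), Dhx58 (0.369) and Xaf1 (0.0876), and in DDE against control for Irf1 (0.072), Stat2 (0.177), Iigp1 (0.0462) and Igtp (0.155). Changes called in neither fit also turned sign, for Isg15, Ifit3, Oas1a, Oasl2 and Usp18 in DDE against control, Rsad2 in PXDDE against control, and Irf1, Stat2, Ifih1, Dhx58 and Irgm1 in PXDDE against DDE. The mean of a gene's probes gave -0.644 for Ifih1 and -0.0112 for Parp14 in PXDDE against control. The Ifih1 value rests on a dimmer probe that was well above background on only 1 PXDDE array, so its size is not read. The cause of the other changes was not tested. With the slide as a block, calls were added for Usp18 and Parp14 in DDE against control and for Parp14 and Tap1 in PXDDE against DDE, and lost for Ifit2 and Cmpk2 in DDE against control and Igtp in PXDDE against control. With the replicate number as a block, 8600, 12938 and 8783 genes were called, and 20, 23 and 10 members were lower. The numbers do not pair the arrays, so this fit says nothing about pairs. Dim probes limit Ifi44, Oas3 and Herc6, which have no tested value.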
